A study of Mus musculus with 203 samples.

Results

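The airways of smoke-exposed mice were compared with and without house dust mite (HDM) extract, an aeroallergen preparation given intranasally to provoke allergic airway disease. The comparison rests on 20 bulk RNA-seq libraries, chosen by their labels alone, out of 160 of 11 weeks and 43 of an earlier time point: 10 of the group HDM.CS and 10 of the group PBS.CS, both from airway at 11 weeks. Other libraries of the series came from air-breathing and dexamethasone-treated mice, and from lung parenchyma. Where they are used below, they show how far the effect of HDM under smoke differed from its effect elsewhere.

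All 20 libraries came from female Balb/C mice aged 18 to 20 weeks. In both groups the mice breathed cigarette smoke (CS) 2 times a day on 5 days a week for 8 weeks, from weeks 4 to 11 of the experiment. The HDM.CS mice also received intranasal HDM extract, 5 days a week at first and 3 times a week from weeks 4 to 11, whereas PBS.CS mice received phosphate-buffered saline. For comparison, HDM.AIR and PBS.AIR mice breathed normal air, and HDM.CS.DEX and PBS.CS.DEX mice breathed smoke and received the glucocorticoid dexamethasone (DEX) in week 11. Airway and parenchyma had been separated by blunt dissection. The labels do not tie libraries to single mice, so p-values measure the spread between libraries, and no library could be paired with another.

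In sensitised mice, HDM provokes T helper 2 responses with mucus and immunoglobulin class switching, and T helper 17 responses with recruitment of neutrophils. Macrophages respond to HDM and to smoke with proteases, antiproteases and scavenger receptors. Club cells, the secretory cells of the small airway, carry much of the lung's cytochrome P450 and glutathione S-transferase activity, by which inhaled chemicals are modified and cleared.

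Sequencing depth was alike in both groups, with 24455976 to 33235259 estimated counts per library in PBS.CS and 25627320 to 40240734 in HDM.CS. Levels are given in CPM, which are counts scaled to library size, as the lowest, median and highest of a group's 10 libraries. Scgb1a1 and Foxj1, markers of club and ciliated cells, were present in all 20 libraries, but their ranges overlapped with those of the parenchyma of the same groups (Foxj1 103.7 to 234 and 54 to 108.05 CPM, scaled over 160 libraries). Acta2, of smooth muscle, separated the tissues, at 89.5 to 634 CPM in the 20 airway and 21.9 to 77.3 CPM in the 20 parenchyma libraries. The codes alternate between airway and parenchyma, except for X173 and X174, where parenchyma comes first. In Acta2 X174, at 360.4 CPM, was above all 20 parenchyma libraries, and X173, at 21.9 CPM, was below all 20 airway libraries. In Scgb1a1 X173 was the highest parenchyma library, at 59867 CPM, against an airway maximum of 57570 CPM. Tissue around the airway varied more: 10 adipose markers summed to 298, 1211 and 4384 CPM in PBS.CS and to 107.6, 272 and 1170 CPM in HDM.CS. Cardiac muscle markers summed to 418, 900.3 and 2876 CPM in PBS.CS and to 183.08, 452 and 1175 CPM in HDM.CS, and lymph node stroma markers to 114.2, 338 and 804 CPM and 92.5, 146.08 and 671 CPM. These sums overlapped between the groups and were higher in PBS.CS at the median, and 5 PBS.CS libraries (X13, X133, X153, X174 and X193) exceeded all 10 HDM.CS libraries in the adipose sum. Most counts of genes and of list members called are therefore also given without those 5 libraries, an alternative chosen after the data were seen. It rests on fewer PBS.CS libraries, so a gene can fail to pass there without a smaller log2FC. Of those left out, X13, X133, X153 and X193 were also lowest in summed macrophage markers. These were at 7479 to 8190 CPM there, against 9671 to 11162 CPM in the other PBS.CS libraries, and their part in that fit was not tested.

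**Figure D1:**
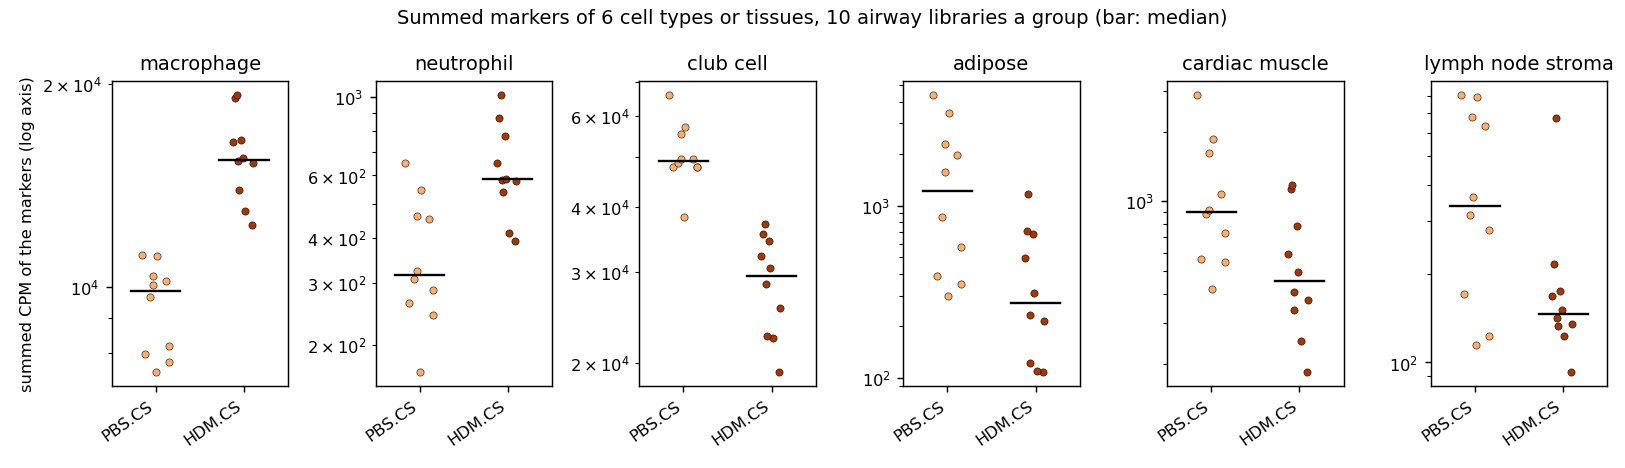
Summed marker levels (CPM, log axis) of 6 cell types or tissues in the 10 PBS.CS and the 10 HDM.CS airway libraries, with 1 point per library and a bar at the group median. Macrophage and club cell sums do not overlap between the groups, whereas the adipose, cardiac muscle and lymph node stroma sums overlap and are higher in PBS.CS at the median.

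HDM raised more airway genes than it lowered under smoke. Of 18015 genes tested with limma-voom, 675 (3.75%) were higher in HDM.CS and 321 (1.78%) were lower at adjusted p < 0.05 (Benjamini-Hochberg) and a log2 fold change (log2FC) of at least 1 in size. These are called genes. Without a limit on size, 2942 genes (16.3%) were higher and 2302 (12.8%) lower at adjusted p < 0.05, and the median log2FC of all genes tested was -0.00416. All 10 HDM.CS libraries lay above all 10 PBS.CS libraries in 265 of the genes called higher (1.47% of those tested), and below them in 19 of those called lower (0.105%). Without the 5 PBS.CS libraries rich in adipose markers 473 genes (2.63%) were called higher and 0.607% lower, and 413 and 68 of the original 675 and 321 were kept.

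Immunoglobulin genes made up 23.1% of the 675 rises. Of the immunoglobulin genes tested, 80.8% were called higher and 0 lower, and all other genes gave 519 rises and 321 falls. Immunoglobulin genes took 0.085, 0.13 and 0.328% of a library's counts in PBS.CS and 0.588, 2.01 and 3.48% in HDM.CS, with no overlap between the groups. The variable (V) genes, which encode the antigen-binding part, had a median log2FC of 3.29. By locus, 77 of 88 heavy chain, 69 of 92 kappa and 2 of 3 lambda V genes were called higher. The variable genes among the 6 largest rises with separate groups were Igkv12-98 (log2FC 5.89 ± 0.84, adjusted p = 4.88e-08), Igkv3-1 (log2FC 5.33 ± 0.91, adjusted p = 3.07e-06) and Ighv5-15 (log2FC 5.21 ± 1.03, adjusted p = 4.57e-05). Near-identical V genes share reads, and the C57BL/6 reference can differ from Balb/C at these loci, so the level of a single V gene is uncertain.

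Of the 8 heavy chain constant genes tested, 6 were called higher and the median log2FC was 2.88. Ighg1 (chromosome 12, 113325240 to 113330523, GRCm38), the constant region of IgG1, the subclass that in mice accompanies type 2 responses, was at 12.6, 76.6 and 388 CPM in PBS.CS and 1731, 6900 and 12985 CPM in HDM.CS. Its lowest HDM.CS library, X177, was still above the highest PBS.CS library, X174, and the rise was 88.2-fold (log2FC 6.46 ± 0.59, adjusted p = 2.29e-14). Of the other IgG genes, Ighg2b rose by a log2FC of 4.39 ± 0.48, adjusted p = 1.67e-11 and Ighg2c by 3.71 ± 0.80, adjusted p = 0.000208, although Balb/C mice carry Ighg2a at that locus. Ighg2c did not pass in the fit with a minimum of 10 CPM (log2FC 3.62, adjusted p = 0.115). Igha, which encodes the heavy chain of mucosal IgA, was at 160.09, 208 and 821 CPM in PBS.CS and 584, 1441 and 2590.3 CPM in HDM.CS. Of the 10 HDM.CS libraries, 8 were above the highest PBS.CS library (log2FC 2.43 ± 0.29, adjusted p = 3.82e-10), which was X174 and lay far above the others. Ighm rose by a log2FC of 1.96 ± 0.44, adjusted p = 0.000306. Ighe, which encodes the IgE heavy chain, had a median of 0 CPM in PBS.CS and of 0.482 CPM in HDM.CS (log2FC 3.25 ± 0.85, adjusted p = 0.00213), a level of a few counts per library, and it did not pass without the 5 adipose-rich libraries (log2FC 2.91, adjusted p = 0.0831). Ighg3 and Ighd did not pass (log2FC 2.51 ± 1.10, adjusted p = 0.077, and 0.63 ± 0.33, adjusted p = 0.141). Both passed with source markers as covariates (log2FC 3.35, adjusted p = 0.00216, and 1.10, adjusted p = 8.78e-05). Ighg3 also passed in some other fits, such as with only the groups compared (adjusted p = 0.0455), but not without the 5 adipose-rich libraries (adjusted p = 0.23).

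Set per kilobase of exon, the heavy chain medians stood in a different order in the 2 groups. In PBS.CS the medians were 106.5 CPM per kilobase for Ighm, 77.8 for Igha and 29.6 for Ighg1. In HDM.CS Ighg1 came first at 2662 CPM per kilobase, followed by Igha at 540.1 and Ighm at 470.3. The ranges of these genes overlapped in both groups, and their order was not tested in either.

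Genes of the antibody-secreting cell moved in the same direction. All 12 plasma cell genes of the list passed as higher and 8 were called, with a median log2FC of 1.64. Jchain, the joining chain of polymeric IgA and IgM, was at 199.91, 287 and 1037 CPM in PBS.CS and 1236, 3461 and 6135 CPM in HDM.CS. The groups did not overlap (log2FC 3.34 ± 0.39, adjusted p = 1.55e-10). Mzb1 and Derl3, which act in the endoplasmic reticulum of secreting cells, rose by log2FC 3.25 ± 0.30, adjusted p = 3.02e-14, and 3.02 ± 0.28, adjusted p = 1.85e-14. Of 12 B cell genes 5 were called higher and 9 passed, with a median log2FC of 0.90. The B cell marker Ms4a1 did not pass, at log2FC 0.77 ± 0.36, adjusted p = 0.0965. It passed with only the groups compared (log2FC 0.75, adjusted p = 0.029) and with quality weights (log2FC 0.81, adjusted p = 0.0415). With source markers as covariates it passed at log2FC 1.58, adjusted p = 4.64e-11. The summed lymph node stroma markers were at a median of 146.08 CPM in HDM.CS and 338 CPM in PBS.CS. As a list of 7 genes they had a median log2FC of 0.11, or of 1.02 without the 5 adipose-rich libraries, and their part in these rises was not tested. With the 5 adipose-rich libraries left out, 7 plasma cell genes, 6 B cell genes and 5 heavy chain genes were called. In bulk tissue, more cells of a type and more RNA per cell cannot be told apart.

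The 2 interleukin-17 genes were among the 6 largest rises with separate groups. They lie side by side on chromosome 1 and encode cytokines by which T helper 17 and other lymphocytes act on epithelium. Their promoters are shown because both genes rose from near the detection limit in every HDM.CS library, and because both hold 1 match to AGGTCA, the core letters bound by receptors of the ROR family. RORγt of that family drives Il17a and Il17f transcription in T cells. The stretches, from RefSeq on GRCm38, run from 250 bases before to 50 after each start, on the gene's strand, with the match in capitals:
Il17a, chr1:20730655-20730954, plus strand: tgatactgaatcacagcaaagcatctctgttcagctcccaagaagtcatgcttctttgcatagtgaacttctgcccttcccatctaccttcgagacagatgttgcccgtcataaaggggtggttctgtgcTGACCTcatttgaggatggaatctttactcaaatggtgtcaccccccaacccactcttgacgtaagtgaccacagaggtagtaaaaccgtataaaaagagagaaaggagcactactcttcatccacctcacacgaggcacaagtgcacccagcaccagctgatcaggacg
Il17f, chr1:20784221-20784520, minus strand: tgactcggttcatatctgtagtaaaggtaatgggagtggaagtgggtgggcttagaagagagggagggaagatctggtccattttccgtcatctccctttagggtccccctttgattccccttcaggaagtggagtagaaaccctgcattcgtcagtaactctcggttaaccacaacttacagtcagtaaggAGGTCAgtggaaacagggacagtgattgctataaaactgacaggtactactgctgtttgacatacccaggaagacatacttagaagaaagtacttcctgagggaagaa
In Il17a the match was on the reverse strand, as TGACCT, 120 bases before the start, and in Il17f it was on the gene's strand, 58 bases before the start. On either strand, AGGTCA occurred in 5340 of 32851 RefSeq promoters of 300 bases (16.3%), so a match is common and is given as a description.

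Il17a was at 0.0599, 0.329 and 1.35 CPM in PBS.CS and 9, 14.2 and 26.6 CPM in HDM.CS. Il17f was at 0.0671, 0.189 and 0.407 CPM in PBS.CS and 4.46, 7.3 and 15.1 CPM in HDM.CS. For both, all 10 HDM.CS libraries were above all 10 PBS.CS libraries, by 47.7-fold for Il17a (log2FC 5.58 ± 0.55, adjusted p = 4.21e-13) and 36.4-fold for Il17f (log2FC 5.19 ± 0.45, adjusted p = 2.76e-15). Il21, a cytokine of T helper 17 and follicular helper cells, was at 0.0333, 0.127 and 0.802 CPM in PBS.CS and 0.564, 2.44 and 3.79 CPM in HDM.CS. It rose by a log2FC of 3.67 ± 0.53, adjusted p = 5.52e-08, and 9 of 10 HDM.CS libraries were above the PBS.CS range, the exception being X57. Il23a, the p19 subunit of the IL-23 cytokine that sustains these cells, rose at low level (median 0.0934 CPM to 0.302 CPM, log2FC 1.33 ± 0.34, adjusted p = 0.00175), and did not pass without the 5 adipose-rich libraries (log2FC 1.11, adjusted p = 0.0773). Il12b, the p40 subunit shared by IL-12 and IL-23, went the other way, at 1.37, 2.53 and 5.69 CPM in PBS.CS and 0.725, 1.32 and 1.81 CPM in HDM.CS. It fell 2.15-fold (log2FC -1.11 ± 0.27, adjusted p = 0.00111), with 6 of 10 HDM.CS libraries below the PBS.CS range. Among the receptors, Il17ra rose by a log2FC of 0.74 ± 0.11, adjusted p = 7.32e-08, and the T helper 17 chemokine receptor Ccr6 by 0.70 ± 0.20, adjusted p = 0.00501. Of the 11 genes tested from the IL-17 axis, 4 were called higher and 1 lower, and without the 5 adipose-rich libraries 3 higher and 1 lower.

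Neutrophil chemokines and alarmins, many of which IL-17 can induce in epithelium, had smaller changes than Il17a and Il17f. Of 16 neutrophil chemokines and alarmins 3 were called higher and 6 passed, with a median log2FC of 0.68. Cxcl3, a ligand of the neutrophil receptor CXCR2, was at 2.77, 5.44 and 13.1 CPM in PBS.CS and 9.59, 18 and 46.6 CPM in HDM.CS (log2FC 1.80 ± 0.38, adjusted p = 0.000116). Lcn2, an iron-sequestering protein of epithelium and neutrophils, was at 461, 712 and 1278 CPM in PBS.CS and 839, 1683 and 2235 CPM in HDM.CS. Its groups overlapped, with 8 of 10 HDM.CS libraries above the PBS.CS range (log2FC 1.05 ± 0.29, adjusted p = 0.00337). Csf3, the growth factor of neutrophils, passed at log2FC 1.35 ± 0.49, adjusted p = 0.0292, a call lost without X17, X73, X93 or X113 (log2FC 1.16 to 1.2). S100a8, a calprotectin subunit, Cxcr2 and Il1b passed at log2FC 0.97, 0.96 and 0.72, that of Il1b being lost without X77 or X153 (log2FC 0.64 and 0.59). The chemokines Cxcl5 and Cxcl1 did not pass (log2FC 0.55 ± 0.38, adjusted p = 0.288, and -0.41 ± 0.27, adjusted p = 0.25), nor did the acute phase gene Saa3 (log2FC 0.73 ± 0.34, adjusted p = 0.0927). The 10 neutrophil markers summed to 167.6, 315 and 649.6 CPM in PBS.CS and 393, 586 and 1011 CPM in HDM.CS, with overlap, and their part in these values was not tested. Leaving out the 5 adipose-rich libraries, 2 genes of the list were called higher, its median was 0.37, and Lcn2, S100a8, Cxcr2 and Il1b did not pass (log2FC 0.66, 0.61, 0.60 and 0.27). Cxcl1 passed as lower in that fit (log2FC -0.93, adjusted p = 0.034). It also did so with quality weights (log2FC -0.65, adjusted p = 0.0364) and with source markers as covariates (log2FC -1.01, adjusted p = 8.42e-05).

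**Figure D2:**
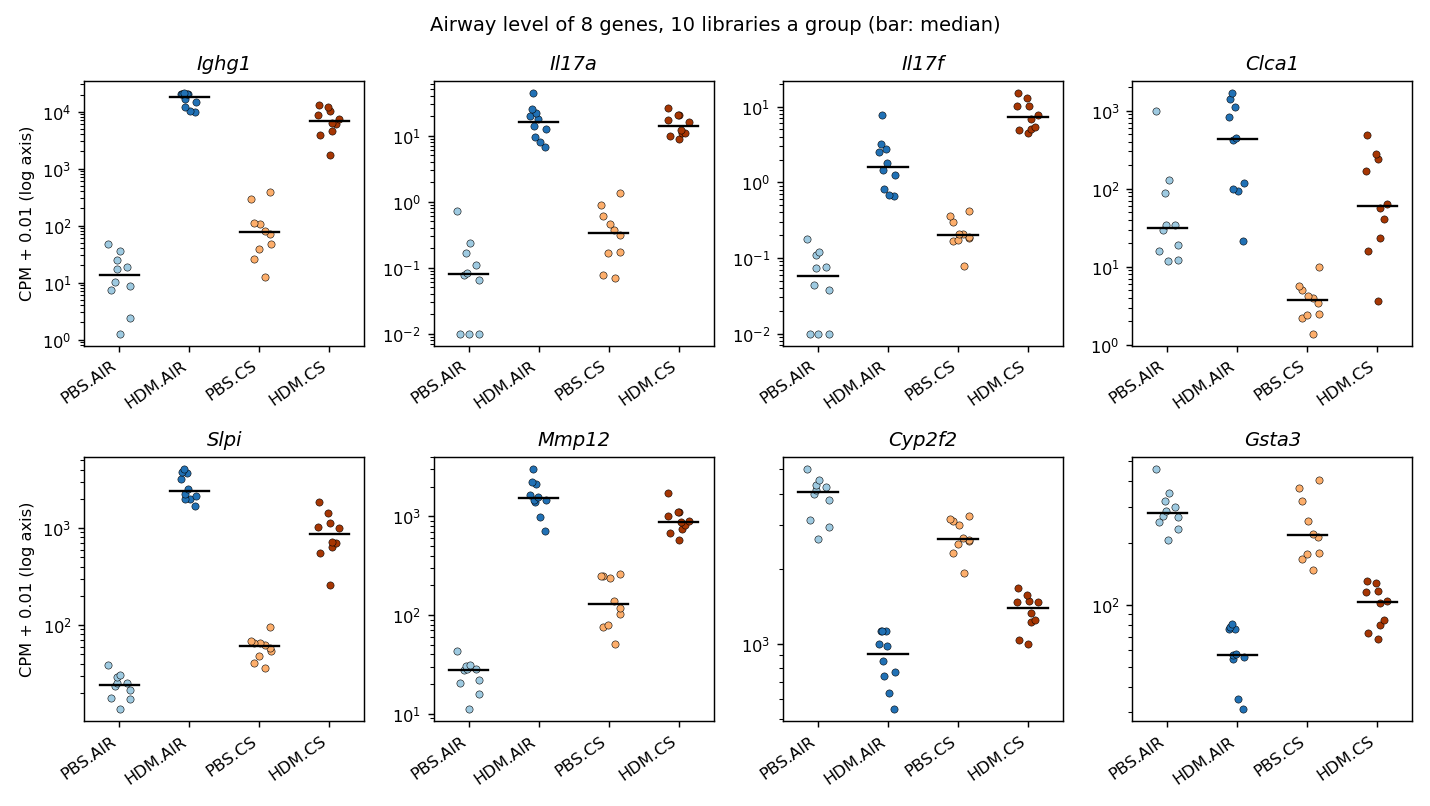
Levels of 8 genes in airway libraries (CPM plus 0.01, log axis), 10 libraries in each of the groups PBS.AIR, HDM.AIR, PBS.CS and HDM.CS, with 1 point per library and a bar at the median. Under smoke the HDM group lies clear of its control for Ighg1, Il17a, Il17f, Slpi and Mmp12 (above) and for Cyp2f2 and Gsta3 (below), and Clca1 spans from 3.69 to 484 CPM in HDM.CS.

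Mucus genes of the goblet cell rose in part. Of 16 tested, 4 were called higher (Clca1, Itln1, Muc5ac and Tff2), and the median log2FC was 0.37. Clca1, a secreted mucus-processing protein of goblet cells, was at 1.39, 3.72 and 9.87 CPM in PBS.CS and 3.69, 60.2 and 484 CPM in HDM.CS. The spread within HDM.CS was wide, and its lowest library, X17, lay within the PBS.CS range (log2FC 4.16 ± 0.95, adjusted p = 0.000437). Muc5ac, the inducible gel-forming mucin, was at 4.54, 6.67 and 9.47 CPM in PBS.CS and 11.3, 24.4 and 103.89 CPM in HDM.CS. Its groups did not overlap (log2FC 2.04 ± 0.39, adjusted p = 2.8e-05). Itln1, the lectin intelectin 1, rose without overlap by a log2FC of 3.10 ± 0.41, adjusted p = 4.63e-09, and Tff2, a trefoil peptide, by 1.21 ± 0.35, adjusted p = 0.00557. Muc5b, the constitutive airway mucin, did not pass (log2FC 0.55 ± 0.30, adjusted p = 0.161). When the 5 adipose-rich libraries were left out, 5 of the 16 were called, Muc5b among them (log2FC 1.03, adjusted p = 0.0366), and the median was 0.93, close to the 0.90 of a fit with source markers as covariates.

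Of the type 2 cytokine genes, Il13, the cytokine that drives mucus metaplasia, had a median of 0 CPM in PBS.CS and of 0.214 CPM in HDM.CS, with 7 of 10 HDM.CS libraries above the PBS.CS maximum of 0.1 CPM (log2FC 2.40 ± 0.59, adjusted p = 0.00116). At this depth these levels are a few counts per library, and Il5, Il9 and Il25 were too low to be tested. Csf2rb and Csf2rb2, the beta chains shared by the receptors of IL-3, IL-5 and GM-CSF, rose without overlap by log2FC 1.36 ± 0.16, adjusted p = 2.44e-10, and 1.27 ± 0.15, adjusted p = 1.55e-10. In all, 3 of 16 genes of this list were called higher and 6 passed, with a median log2FC of 0.38. Without the 5 adipose-rich libraries 2 were called, since Csf2rb, which still passed, was at log2FC 0.94.

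Chemokines of the type 2 response moved in both directions. Ccl8, a ligand of CCR8 in mice, was at 9.1, 12.6 and 46.6 CPM in PBS.CS and 22.8, 94.4 and 145.7 CPM in HDM.CS, and all HDM.CS libraries but X57 were above the PBS.CS range (log2FC 2.65 ± 0.33, adjusted p = 6.3e-10). Ccl24, an eotaxin, fell by 1.26 on the log2 scale (± 0.33, adjusted p = 0.00261), and Ccl17, a ligand of CCR4, by 0.98 (± 0.24, adjusted p = 0.00117). Ccl2, which draws monocytes, was at 5.93, 12 and 19.1 CPM in PBS.CS and 3.94, 5.79 and 9 CPM in HDM.CS. It fell 1.8-fold (log2FC -0.85 ± 0.24, adjusted p = 0.00507), with 7 of 10 HDM.CS libraries below the PBS.CS range. Its neighbour Ccl12 rose by a log2FC of 0.86 ± 0.28, adjusted p = 0.0146. It did not pass without X153 (log2FC 0.71), with edgeR (log2FC 0.75, adjusted p = 0.0616) or with DESeq2 (log2FC 0.74, adjusted p = 0.057). The list of 11 thus had 1 gene called higher and 1 lower, and a median log2FC of 0.017. With the 5 adipose-rich libraries left out, the list had 1 gene called higher, 2 lower and a median of -0.26. Ccl24 and Ccl12 then did not pass (log2FC -1.04 and 0.51), whereas Ccl17 and Ccl2 were called lower (log2FC -1.50 and -1.22).

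Proteases of the mast cell moved in opposite directions, an observation made after the values were seen. Mcpt1, a chymase of mucosal mast cells, was at 0.0663, 0.35 and 1.42 CPM in PBS.CS and 1.17, 3.46 and 7.81 CPM in HDM.CS. Of the HDM.CS libraries, 7 were above the PBS.CS range (log2FC 3.12 ± 0.61, adjusted p = 3.88e-05), and Mcpt2, its mucosal neighbour, rose by a log2FC of 1.71 ± 0.57, adjusted p = 0.0175. Mcpt4, a chymase of connective tissue mast cells, was at 1.36, 5.01 and 19.2 CPM in PBS.CS and 0.658, 1.16 and 2.61 CPM in HDM.CS. Of the HDM.CS libraries, 7 were below the PBS.CS range (log2FC -1.95 ± 0.52, adjusted p = 0.00269), and Cma1 and Cpa3, the chymase and carboxypeptidase of the same cells, fell by 1.48 (± 0.45, adjusted p = 0.00826) and 1.40 on the log2 scale (± 0.50, adjusted p = 0.0266). Leaving out the 5 adipose-rich libraries, the rises of Mcpt1 and Mcpt2 passed (log2FC 3.87 and 2.98), whereas Mcpt4, Cma1 and Cpa3 did not pass (log2FC -1.15, -0.86 and -0.58), and the call of Cpa3 was also lost without X57, X153 or X193. Prg2, the eosinophil major basic protein, was at 0.199, 0.489 and 1.12 CPM in PBS.CS and 0.977, 1.76 and 2.72 CPM in HDM.CS, with 9 of 10 HDM.CS libraries above the PBS.CS range (log2FC 1.73 ± 0.37, adjusted p = 0.000197).

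Macrophage genes mostly rose, with exceptions. The 12 macrophage markers summed to 7479, 9876 and 11162 CPM in PBS.CS and to 12366, 15441 and 19253 CPM in HDM.CS, without overlap, and the part of this shift in the values below was not tested. Slpi, an antiprotease secreted by epithelium and myeloid cells (chromosome 2, 164354070 to 164389095, GRCm38), had the smallest p of any rise. It was at 36.3, 60.2 and 95.4 CPM in PBS.CS and 259.7, 862 and 1837 CPM in HDM.CS. The groups were clear of each other (14.4-fold, log2FC 3.85 ± 0.23, adjusted p = 1.88e-22), with X177 lowest in HDM.CS. Mmp12, the macrophage elastase, a protease known from smoke-exposed lungs, was at 50.7, 129.2 and 260.1 CPM in PBS.CS and 578, 886 and 1715 CPM in HDM.CS. It too was separate between the groups (log2FC 2.76 ± 0.29, adjusted p = 6.91e-12).

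Of 15 genes of lipid-handling macrophages, 6 were called higher and 1 lower, with a median log2FC of 0.93. Gpnmb, a glycoprotein of lysosome-rich macrophages, and Trem2, a lipid-sensing receptor, rose without overlap by log2FC 1.80 ± 0.28, adjusted p = 2.99e-07, and 1.71 ± 0.18, adjusted p = 1.13e-11. Marco, a scavenger receptor of resident alveolar macrophages, fell by 1.44 on the log2 scale (± 0.34, adjusted p = 0.000661). Of 14 genes of alternatively activated macrophages 6 were called higher and 1 lower, with a median log2FC of 0.35. Arg1, the arginase of these cells, was at 1.04, 1.94 and 2.3 CPM in PBS.CS and 2.54, 16.2 and 71 CPM in HDM.CS. The groups did not overlap, although the lowest HDM.CS library, X57, was close to the PBS.CS range (log2FC 2.96 ± 0.56, adjusted p = 2.2e-05). Chil3, a chitinase-like protein, rose by a log2FC of 2.15 ± 0.40, adjusted p = 1.88e-05, and Chil4, its close relative, by 3.71 ± 1.44, adjusted p = 0.043. The call of Chil4 was lost in 14 of the 20 fits that each left out 1 library, and reads of the near-identical Chil3 and Chil4 may be shared. When the 5 adipose-rich libraries were left out, 3 and 3 genes of these lists were called higher and 1 and 0 lower, the medians were 0.57 and 0.11, and Chil4 did not pass (log2FC 3.44). Gpnmb, Trem2 and Chil3 still passed, at smaller log2FC of 1.11, 1.21 and 1.36.

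Among 16 C-type lectin and Toll-like receptor genes, which detect HDM and microbial products, 7 were called higher, 15 passed as higher and 1 passed as lower. The median log2FC was 0.90. Clec7a, the beta-glucan receptor Dectin-1, was at 45.7, 141.5 and 303 CPM in PBS.CS and 411, 514 and 685 CPM in HDM.CS. All 10 HDM.CS libraries were above the PBS.CS range (log2FC 1.96 ± 0.25, adjusted p = 2.72e-09). Clec4e and Clec4d, the receptors Mincle and MCL, rose without overlap by log2FC 2.36 ± 0.30, adjusted p = 1.76e-09, and 1.79 ± 0.19, adjusted p = 7.42e-12, and Syk, the kinase through which they signal, by 1.14 ± 0.11, adjusted p = 1.33e-13. The exception was the flagellin receptor Tlr5, which fell by 0.40 on the log2 scale (± 0.12, adjusted p = 0.00751). Without the 5 adipose-rich libraries 3 of the 16 were called. Syk, Clec4n, Tlr8 and Tlr13 still passed in that fit but were under the size limit (log2FC 0.87, 0.86, 0.80 and 0.72).

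Spi1, Il1rn, Ptafr, Itgax and Clec7a are myeloid genes that the text of the study names. Spi1, which encodes the transcription factor PU.1 of myeloid cells, was at 14.1, 31.9 and 47.9 CPM in PBS.CS and 32.5, 51.8 and 73.6 CPM in HDM.CS. Of the HDM.CS libraries, 6 exceeded the PBS.CS range (log2FC 0.83 ± 0.17, adjusted p = 7.02e-05), and without the 5 adipose-rich libraries Spi1 did not pass (log2FC 0.30, adjusted p = 0.278). Spi1 passed in all 20 fits that each left out 1 library (log2FC 0.70 to 0.91). Il1rn, the IL-1 receptor antagonist, was at 14.7, 37.2 and 80.1 CPM in PBS.CS and 65.7, 97.8 and 247 CPM in HDM.CS (log2FC 1.59 ± 0.25, adjusted p = 4.31e-07). Ptafr, the receptor of platelet-activating factor, was at 18.9, 24.1 and 46.2 CPM in PBS.CS and 54, 80.1 and 119.7 CPM in HDM.CS. Itgax, the integrin CD11c of dendritic cells and alveolar macrophages, was at 34.5, 74.1 and 164.6 CPM in PBS.CS and 186.5, 285 and 399 CPM in HDM.CS. The groups did not overlap for Ptafr (log2FC 1.57 ± 0.14, adjusted p = 6.04e-15) or Itgax (log2FC 1.74 ± 0.26, adjusted p = 1.24e-07), whereas 7 of 10 HDM.CS libraries were above the PBS.CS range for Il1rn. Without the 5 adipose-rich libraries Il1rn, Ptafr, Itgax and Clec7a still passed, at smaller log2FC of 0.87, 1.27, 1.06 and 1.23. Il1rn was then under the size limit. Stac2, an adaptor that binds voltage-gated calcium channels, and Fcgr2b, the inhibitory IgG receptor, followed Slpi in p. Stac2 was at 2.03, 3.17 and 5.17 CPM in PBS.CS and 14.3, 24.6 and 29.5 CPM in HDM.CS, and Fcgr2b at 47, 60.3 and 80 CPM in PBS.CS and 158.4, 194.8 and 236 CPM in HDM.CS. Neither overlapped (Stac2 log2FC 2.81 ± 0.17, adjusted p = 1.88e-22, and Fcgr2b log2FC 1.63 ± 0.11, adjusted p = 6.75e-21).

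Antigen presentation and interferon gamma genes rose together. Of 13 genes of MHC class II presentation 10 passed as higher and 1 was called, with a median log2FC of 0.69. The called gene was Ctss, the cathepsin that trims the invariant chain, at 177.8, 299.8 and 490.0 CPM in PBS.CS and 955, 1215 and 1524 CPM in HDM.CS and with no overlap (log2FC 1.97 ± 0.17, adjusted p = 8.12e-16). The invariant chain Cd74 rose by a log2FC of 0.82 ± 0.14, adjusted p = 3e-06, also without overlap, as did H2-Aa, a chain of the class II molecule I-A, by 0.67 ± 0.16, adjusted p = 0.000676. Its partner chain H2-Ab1 rose by 0.74 ± 0.21, adjusted p = 0.00514. Ciita, the regulator of transcription of the class II genes, rose by 0.80 ± 0.17, adjusted p = 0.000201. With the 5 adipose-rich libraries left out, 1 gene of the 13 was called, and H2-Aa and H2-Ab1 did not pass (log2FC 0.50 and 0.40).

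Of 17 genes of the interferon gamma and CXCR3 list 6 were called higher and 15 passed, with none lower and a median log2FC of 0.83. Ifng was at 0.039, 0.266 and 0.55 CPM in PBS.CS and 0.406, 1.1 and 1.72 CPM in HDM.CS, and 9 of 10 HDM.CS libraries were above the PBS.CS range (log2FC 2.31 ± 0.44, adjusted p = 2.8e-05). The 3 ligands of CXCR3 rose, Cxcl9 by a log2FC of 1.95 ± 0.57, adjusted p = 0.00688, Cxcl10 by 1.67 ± 0.46, adjusted p = 0.0037, and Cxcl11 by 1.83 ± 0.59, adjusted p = 0.0144. Nos2, the inducible nitric oxide synthase, rose without overlap by 1.79 ± 0.33, adjusted p = 1.38e-05, and Tbx21, the T helper 1 transcription factor T-bet, by 0.83 ± 0.25, adjusted p = 0.00755. Leaving out the 5 adipose-rich libraries, Cxcl9, Cxcl10, Cxcl11 and Tbx21 did not pass, at log2FC 2.19, 1.38, 1.41 and 0.45, and 3 genes of the list were called. The log2FC of Cxcl9 was no smaller there (adjusted p = 0.0628), whereas those of Cxcl10, Cxcl11 and Tbx21 were smaller.

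Among T cell genes the calls were in receptors of activated cells. Of 19 tested 5 were called higher, and all 5 encode inhibitory receptors found on activated T cells. Which cells carried this RNA was not tested, and of 10 T cell markers 0 passed. Pdcd1, which encodes PD-1, was at 0.819, 1.83 and 3.59 CPM in PBS.CS and 5.35, 6.93 and 9.91 CPM in HDM.CS, without overlap (log2FC 1.96 ± 0.24, adjusted p = 6.64e-10). Tigit rose by a log2FC of 2.02 ± 0.28, adjusted p = 1.88e-08, Lag3 by 1.77 ± 0.29, adjusted p = 9.97e-07, Ctla4 by 1.10 ± 0.30, adjusted p = 0.00357, and Havcr2 (TIM-3) by 1.03 ± 0.16, adjusted p = 2.04e-07. Ctla4 did not pass with edgeR (log2FC 0.93, adjusted p = 0.073) or with DESeq2 (log2FC 0.92, adjusted p = 0.0693). Cd3e, a chain of the T cell receptor complex, did not pass (log2FC 0.59 ± 0.28, adjusted p = 0.1), and the list's median was 0.41. Cd3e passed with more libraries in the fit (adjusted p = 0.0276) and with source markers as covariates (log2FC 0.98, adjusted p = 2.2e-07). Of 12 cytotoxic lymphocyte genes 1 was called, Gzmk, which encodes granzyme K (log2FC 1.40 ± 0.36, adjusted p = 0.00179), and the median was 0.34. When the 5 adipose-rich libraries were left out, 5 and 0 genes of these lists were called, with Gzmk not passing (log2FC 1.27). Havcr2 was then under the size limit (log2FC 0.59) and Icos, a costimulatory receptor, was called in its place (log2FC 1.03). The cytotoxic list's median was then 0.22.

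Genes of epithelial metabolism and secretion fell. Of 21 xenobiotic metabolism genes 17 passed as lower and 4 were called, with none higher and a median log2FC of -0.64. Cyp2f2 (chromosome 7, 27119909 to 27133660, GRCm38), the cytochrome P450 most typical of club cells in mice, was at 1925, 2634 and 3243 CPM in PBS.CS and 996, 1396 and 1675 CPM in HDM.CS. All 10 HDM.CS libraries were below the PBS.CS range, and the level was 2.01-fold lower (log2FC -1.01 ± 0.13, adjusted p = 3.28e-09). Sult1d1, a sulfotransferase, fell by 1.55 on the log2 scale (± 0.39, adjusted p = 0.00148). Cyp2a5 passed at log2FC -1.22 ± 0.45, adjusted p = 0.0333, a call lost in 10 of the 20 fits without 1 library. Without the 5 adipose-rich libraries 0 genes of the list were called lower, Sult1d1 and Cyp2a5 did not pass (log2FC -0.85 and -0.40), Cyp2f2 did (log2FC -0.89, adjusted p = 4.22e-05), and the list's median was -0.55.

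The secretory products of club cells fell alongside. The 6 club cell markers summed to 38266, 49144 and 65967 CPM in PBS.CS and to 19137, 29469 and 37151 CPM in HDM.CS, without overlap. Scgb1a1, the major club cell secretory protein, was at 33078, 40355 and 58564 CPM in PBS.CS and 11668, 23788 and 29698 CPM in HDM.CS. The groups did not overlap (log2FC -0.88 ± 0.16, adjusted p = 1.51e-05), and X17 was lowest. Scgb3a2 fell by 1.07 on the log2 scale (± 0.26, adjusted p = 0.000791). Bpifa1, an antimicrobial airway secretion, passed at log2FC -1.56 ± 0.58, adjusted p = 0.0331, a call lost in 8 of the 20 fits without 1 library. Against this direction, Pigr, the receptor that carries polymeric IgA into the airway lumen, rose without overlap by a log2FC of 0.75 ± 0.14, adjusted p = 2.56e-05. Of the 14 genes of this list 9 passed as lower and 1 as higher, and 4 were called lower. With the 5 adipose-rich libraries left out, 0 were called, Scgb3a2 and Bpifa1 did not pass (log2FC -0.73 and -0.37), and Scgb1a1 did (log2FC -0.99, adjusted p = 0.000289).

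Genes of the alpha class of glutathione S-transferases fell, while Hmox1 and Slc7a11, 2 other targets of the antioxidant transcription factor NRF2, rose. Gsta3 (chromosome 1, 21240589 to 21265661, GRCm38) was at 148.2, 218 and 407 CPM in PBS.CS and 68.2, 103.7 and 131.5 CPM in HDM.CS. It was 2.37-fold lower with no overlap (log2FC -1.24 ± 0.21, adjusted p = 2.77e-06). Its promoter is shown because it holds the core letters of the antioxidant response element to which NRF2 binds, in a gene that fell with HDM. The medians in air were 280.1 CPM in PBS.AIR and 57.3 CPM in HDM.AIR. The stretch, from RefSeq on GRCm38, runs from 250 bases before to 50 after the start, with the match in capitals:
Gsta3, chr1:21240335-21240634, plus strand: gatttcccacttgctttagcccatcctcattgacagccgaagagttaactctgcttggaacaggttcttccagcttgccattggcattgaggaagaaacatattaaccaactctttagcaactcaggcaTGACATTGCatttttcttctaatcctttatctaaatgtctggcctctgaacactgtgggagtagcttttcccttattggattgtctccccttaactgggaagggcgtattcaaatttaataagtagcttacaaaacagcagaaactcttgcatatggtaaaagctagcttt
The match to TGACNNNGC lay between the start of the stretch and the transcription start. On either strand TGACNNNGC occurred in 4071 of 32851 RefSeq promoters of 300 bases (12.4%).

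Gsta2, among the largest falls with separate groups and the smallest p of any of them, was at 5.62, 7.44 and 19.2 CPM in PBS.CS and 1.45, 2.12 and 3.09 CPM in HDM.CS (log2FC -1.91 ± 0.21, adjusted p = 3.21e-11). Gsta1 fell by 1.98 on the log2 scale (± 0.49, adjusted p = 0.00112), and reads of the similar Gsta1 and Gsta2 may be shared. By contrast Hmox1, heme oxygenase 1, was at 33.9, 46.4 and 66.8 CPM in PBS.CS and 58.5, 118.4 and 361 CPM in HDM.CS. Of the HDM.CS libraries, 8 were above the PBS.CS range (log2FC 1.37 ± 0.20, adjusted p = 7.18e-08). Slc7a11, the cystine importer, rose by a log2FC of 1.25 ± 0.20, adjusted p = 5.62e-07. Nqo1, a quinone reductase induced through NRF2 and the aryl hydrocarbon receptor, passed at log2FC -0.95 ± 0.31, adjusted p = 0.0152. It did not pass without X117, X153 or X193 (log2FC -0.78, -0.73 and -0.75), or with only the groups compared (log2FC -0.96, adjusted p = 0.128). Of 19 NRF2 genes 2 were called higher and 2 lower, and 8 passed as lower. Leaving out the 5 adipose-rich libraries, 2 were called higher and 0 lower, Gsta1 and Nqo1 did not pass (log2FC -0.74 and -0.056), whereas Gsta2 and Gsta3 did (log2FC -1.58, adjusted p = 2.04e-07, and -0.84, adjusted p = 0.0138). The aryl hydrocarbon receptor detects polycyclic aromatic compounds of smoke, and its most inducible target, Cyp1a1, was at 17.1, 50 and 189.02 CPM in PBS.CS and 16.7, 49.2 and 214 CPM in HDM.CS. The groups overlapped almost fully (log2FC 0.17 ± 0.48, adjusted p = 0.836), against medians of 5.21 CPM in PBS.AIR and 1.27 CPM in HDM.AIR. Of the 9 aryl hydrocarbon receptor genes tested 0 were called higher and 1 lower, Aldh3a1 (log2FC -1.11 ± 0.30, adjusted p = 0.00345), which did not pass without the 5 adipose-rich libraries (log2FC -0.27).

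Genes of the motile cilium were lower by a smaller step. Of 18 tested 11 passed as lower and 1 was called, with a median log2FC of -0.46. Tekt4 and Tppp3, proteins of the axoneme and its microtubules, fell by 0.65 (± 0.15, adjusted p = 0.000826) and by 0.62 on the log2 scale (± 0.11, adjusted p = 7.14e-06). The called gene, Mcidas, which switches on the multiciliated cell programme, was at 0.174, 0.464 and 1.1 CPM in PBS.CS and 0.0514, 0.252 and 0.704 CPM in HDM.CS, and its call was lost in 9 of the 20 fits without 1 library. When the 5 adipose-rich libraries were left out, the median log2FC was -0.27 and Tekt4 did not pass (log2FC -0.46).

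The falls of largest size with separate groups were in genes of other kinds. Cd209g, a C-type lectin of the SIGN family, was at 2.32, 5.93 and 10.2 CPM in PBS.CS and 0.157, 0.844 and 1.62 CPM in HDM.CS, and its neighbour Cd209f at 2.22, 4.91 and 10.4 CPM in PBS.CS and 0.103, 0.707 and 1.64 CPM in HDM.CS. Every HDM.CS library was below every PBS.CS library for both, by 9.22-fold (log2FC -3.21 ± 0.46, adjusted p = 5.52e-08) and 8.7-fold (log2FC -3.12 ± 0.47, adjusted p = 2.19e-07). Slc5a12, a sodium-coupled lactate transporter, fell by 2.45 on the log2 scale (± 0.50, adjusted p = 9.49e-05), and Asgr1, a subunit of the asialoglycoprotein receptor, by 2.13 (± 0.31, adjusted p = 5.86e-08). Gria1, a subunit of AMPA glutamate receptors, fell by 1.67 (± 0.23, adjusted p = 9.99e-09). Ppp2r2b, a regulatory subunit of protein phosphatase 2A, and Cbs, the first enzyme of transsulfuration, had the next smallest p after Gsta2. They fell by 1.08 on the log2 scale (± 0.12, adjusted p = 9e-11) and by 1.21 (± 0.16, adjusted p = 2.23e-09), again with no overlap.

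Genes of dividing cells were raised by small amounts. Of 20 cell cycle genes 14 passed as higher and 1 was called, with a median log2FC of 0.49. The called gene, Mki67, the Ki-67 marker of cycling cells, was at 20.6, 27.4 and 37.5 CPM in PBS.CS and 45.5, 56.3 and 77.9 CPM in HDM.CS, without overlap (log2FC 1.03 ± 0.21, adjusted p = 5.86e-05). Aurkb and Rrm2, of mitosis and of DNA precursor synthesis, rose by log2FC 0.77 ± 0.18, adjusted p = 0.000625, and 0.68 ± 0.18, adjusted p = 0.00301, the latter not passing without the 5 adipose-rich libraries (0.45). In that fit 0 cell cycle genes were called, Mki67 passing at log2FC 0.92.

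Matrix genes moved singly. Of 18 collagen genes 2 were called higher, and the median log2FC was 0.38. Col24a1, a fibrillar collagen chain, was at 0.808, 2.14 and 4.8 CPM in PBS.CS and 9.69, 13.1 and 23 CPM in HDM.CS, without overlap (log2FC 2.71 ± 0.25, adjusted p = 1.99e-14). Col6a5, a collagen VI chain, rose by a log2FC of 1.68 ± 0.35, adjusted p = 0.000136. Col28a1 passed at log2FC -0.82 ± 0.31, adjusted p = 0.0403, but did not pass in 10 of the 20 fits without 1 library. Of 21 TGF-beta and BMP genes 1 was called, Inhba, the beta A chain of activin, which rose without overlap (log2FC 2.23 ± 0.36, adjusted p = 1.07e-06). The type I TGF-beta receptor Tgfbr1 rose by 0.82 ± 0.082, adjusted p = 6.05e-13, and the ligand Tgfb1 by 0.61 ± 0.16, adjusted p = 0.00198. Without the 5 adipose-rich libraries 2 collagen genes and 1 TGF-beta or BMP gene were called, and Col28a1 and Tgfb1 did not pass (log2FC -0.33 and 0.19).

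Smooth muscle genes were lower, to an extent that depended on 5 PBS.CS libraries. Of 18 tested 12 passed as lower and 2 were called, Chrm2, the M2 muscarinic receptor (log2FC -1.10 ± 0.35, adjusted p = 0.0118), and Cnn1, calponin (log2FC -1.0 ± 0.33, adjusted p = 0.0166, lost without X133 at -0.84). Acta2, smooth muscle actin, was at 91.1, 279.6 and 645 CPM in PBS.CS and 101.3, 150.86 and 295 CPM in HDM.CS with full overlap of HDM.CS by PBS.CS (log2FC -0.70 ± 0.27, adjusted p = 0.0446). It no longer passed in 12 of the 20 fits without 1 library, nor with no filter, with only the groups compared or with quality weights (log2FC -0.71, -0.71 and -0.40). Smooth muscle markers summed to 866, 1697 and 3604 CPM in PBS.CS and 805, 1061 and 1898 CPM in HDM.CS. With the 5 adipose-rich libraries left out, 0 genes of the list were called, Chrm2 and Cnn1 did not pass (log2FC -0.39 and -0.21), Acta2 was at log2FC 0.038 (adjusted p = 0.953), Myh11, smooth muscle myosin, was at 0.0039 (adjusted p = 0.995), and the list's median moved from -0.64 to -0.096.

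**Figure D3:**
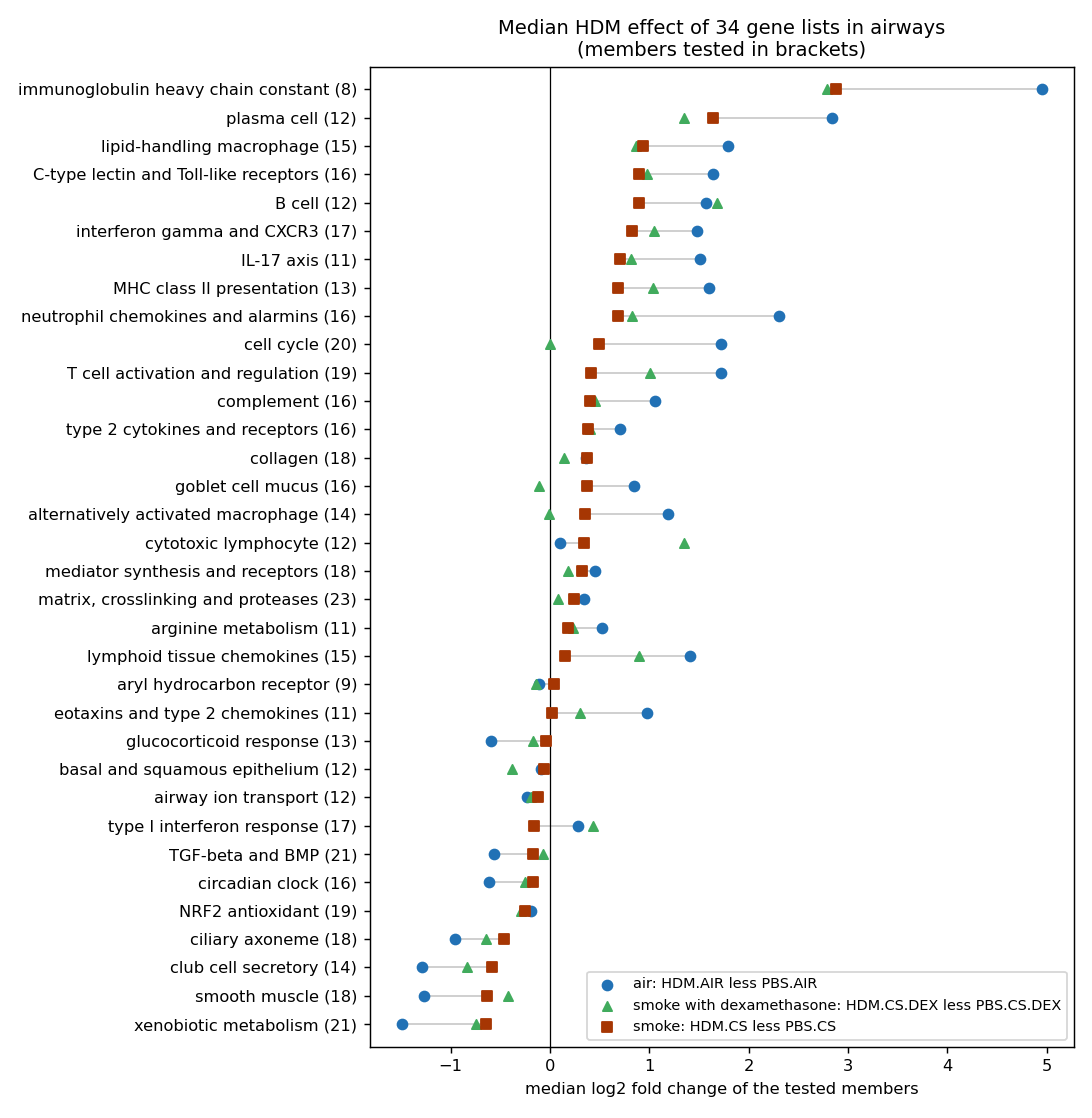
Median log2 fold change of the tested members of 34 gene lists in airways, for HDM under smoke (squares), HDM in air (circles) and HDM under smoke with dexamethasone (triangles), ordered by the median under smoke. Heavy chain and plasma cell lists are at the top under smoke (2.88 and 1.64) and xenobiotic metabolism is at the bottom (-0.64), and both ends reach further in air (4.96 and -1.49).

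The effect of HDM under smoke was set against its effect in air, from 20 other libraries. In air 1865 genes were called higher (10.4%) and 1512 lower (8.39%). Of the 675 rises under smoke 657 were also called in air, which is 97.3% of the rises under smoke and 35.2% of those in air. Of the 321 falls 277 were shared, which is 86.3% and 18.3%. Across the 18015 genes the 2 effects had Pearson r = 0.9 and Spearman rho = 0.835, a description over genes that are not independent.

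The effect differed between smoke and air in 2846 genes at adjusted p < 0.05, in a test of the difference itself, or in 18.2% of genes without the 5 adipose-rich libraries. The difference (smoke less air) was positive in 1025 (5.69%) and negative in 1821 (10.1%). Of the 2846, 1679 had a positive log2FC in both settings that was smaller under smoke, and 931 had a negative log2FC in both that was smaller in size under smoke. The log2FC had the same sign and was larger in size under smoke for 3 positive and 1 negative, and 232 genes had log2FC of opposite sign. Among the 675 genes called higher under smoke the median log2FC was 1.57 under smoke and 2.79 in air, and the effect differed in 299 of them, 296 larger in air. Among the 321 called lower the medians were -1.33 and -2.02, and 35 differed, 27 larger in air. Cardiac muscle markers, which point to heart or great vessel tissue in the dissected airway, had medians of 1956 and 333 CPM in PBS.AIR and HDM.AIR against 900.3 and 452 CPM in PBS.CS and HDM.CS, and their part in these differences was not tested.

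**Figure D4:**
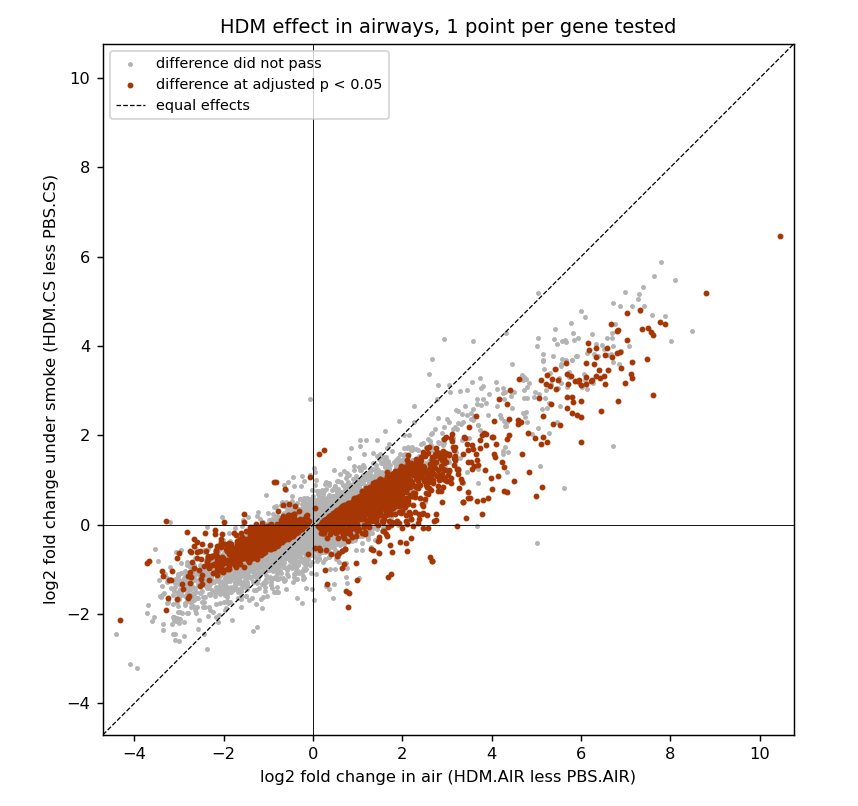
Log2 fold change of HDM under smoke (vertical) against that in air (horizontal) for 18015 airway genes, 1 point per gene, with the 2846 genes whose effects differed at adjusted p < 0.05 coloured and equal effects on the dashed line. Coloured points lie mostly between the dashed line and the horizontal axis, which are the 1679 positive and 931 negative effects of smaller size under smoke.

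The levels behind the 296 genes with the larger rise in air differed in both arms. Their mean was over 2-fold higher in PBS.CS than in PBS.AIR for 45.6% of them, over 2-fold lower in HDM.CS than in HDM.AIR for 29.1%, both for 15.5% and neither for 40.9%, as group levels with no test. Mmp12 had medians of 27.8 CPM in PBS.AIR and 1523 CPM in HDM.AIR, against 129.2 and 886 CPM under smoke (difference in log2FC -3.25 ± 0.43, adjusted p = 7.2e-08). Slpi had medians of 24.2 and 2397 CPM in air, against 60.2 and 862 CPM under smoke (difference -2.97 ± 0.35, adjusted p = 6.81e-09). For Lcn2 the HDM medians were close, 1754 CPM in air and 1683 CPM under smoke, and the PBS medians were 116.8 and 712 CPM (difference -2.94 ± 0.39, adjusted p = 7.2e-08). Cyp2f2 had medians of 4061 and 912 CPM in air, so that the larger fall in air ended below the level under smoke (difference 1.13 ± 0.18, adjusted p = 7.21e-06).

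The smaller effect under smoke ran through most lists but not all. The difference passed in 13 of 16 neutrophil chemokines and alarmins, whose median log2FC was 0.68 under smoke and 2.31 in air. It passed in 18 of 20 cell cycle genes (0.49 and 1.72), 11 of 13 MHC class II genes, 13 of 19 T cell genes, 10 of 15 lipid-handling macrophage genes in the same direction, 9 of 12 plasma cell genes and 13 of 21 xenobiotic genes. Of the immunoglobulin V genes 59 had the smaller effect under smoke and 0 the larger, with medians of 3.29 and 5.77. Ighg1 differed by -4.00 ± 0.92, adjusted p = 0.00109. Immunoglobulin genes took 0.0579, 0.0702 and 0.327% of counts in PBS.AIR and 2.97, 4.86 and 6.26% in HDM.AIR.

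For Il17a and Il17f no difference was shown. Il17a had medians of 0.0697 and 15.8 CPM in air, and its difference was -2.06 ± 0.95, adjusted p = 0.132. Il17f had medians of 0.0484 and 1.6 CPM in air, with HDM.AIR libraries from 0.653 to 7.72 CPM and HDM.CS libraries from 4.46 to 15.1 CPM (difference 0.16 ± 0.80, adjusted p = 0.922). Of the IL-17 axis list 5 of 11 genes differed, each with the more negative log2FC under smoke, and the medians were 0.70 under smoke and 1.51 in air. Il17ra was among them (difference -0.43 ± 0.15, adjusted p = 0.0443). Of the interferon gamma and CXCR3 list 1 of 17 differed, and of the cytotoxic list 0 of 12, against 2846 of all 18015 genes tested. The median log2FC of the interferon gamma list was 0.83 under smoke and 1.48 in air, and that of the cytotoxic list 0.34 and 0.10. A difference that did not pass does not show that the effects were equal. Clca1 and Muc5ac did not differ at the threshold either (1.23 ± 1.13, adjusted p = 0.51, and -0.59 ± 0.53, adjusted p = 0.496). The PBS.AIR library X5 held 974 CPM of Clca1, against 11.9 to 130.5 CPM in the other 9, and without it the differences were 0.72 ± 1.06, adjusted p = 0.7, and -0.84 ± 0.54, adjusted p = 0.307.

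The 3 smallest p in each direction of the difference belonged to Upk1a, Palmd and Gstk1, whose falls in air were larger, and to Clmp, Tnip1 and Hpgds, whose rises in air were larger. Upk1a, a uroplakin, fell in air by 2.67 on the log2 scale and was at -0.31 ± 0.18, adjusted p = 0.197 under smoke (difference 2.36 ± 0.25, adjusted p = 1.32e-10). For Palmd, which encodes palmdelphin, the log2FC was -0.18 under smoke and -1.11 in air (difference 0.93 ± 0.12, adjusted p = 3.13e-08), and for Gstk1, a glutathione S-transferase, -0.48 and -1.29 (difference 0.81 ± 0.11, adjusted p = 9.64e-08). Clmp, an adhesion molecule, rose by 0.92 under smoke and 2.69 in air (difference -1.77 ± 0.18, adjusted p = 1.02e-10). Tnip1, a partner of the NF-kB inhibitor A20, had log2FC 0.30 and 1.13 (difference -0.83 ± 0.094, adjusted p = 1.76e-09), and Hpgds, a prostaglandin D2 synthase, 0.43 and 1.94 (difference -1.51 ± 0.17, adjusted p = 3.21e-09). Leaving out the 5 adipose-rich libraries, Tnip1 and Hpgds did not pass under smoke (log2FC 0.18 and 0.24).

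In 8 genes the effects were opposite, each passing on its own. Of the listed genes Il12b fell under smoke and rose in air (log2FC -1.11 and 1.74, difference -2.85 ± 0.43, adjusted p = 2.1e-06), as did Ccl17 (-0.98 and 0.65, difference -1.63 ± 0.36, adjusted p = 0.000837) and Ccl2 (-0.85 and 0.97, difference -1.82 ± 0.40, adjusted p = 0.000728). Their medians were 0.457, 5.12 and 2.54 CPM in PBS.AIR and 2.53, 17.1 and 12 CPM in PBS.CS, whereas both HDM groups lay close together, at 1.61, 9.83 and 5.13 CPM in HDM.AIR and 1.32, 7.26 and 5.79 CPM in HDM.CS. Col8a1, a short-chain collagen of vessel walls, rose under smoke and fell in air (0.46 and -0.54, difference 1.00 ± 0.18, adjusted p = 2.83e-05).

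Of the genes called higher, 3 had the larger effect under smoke: Ear1, Col6a5 and Gm16104, of which Ear1 and Gm16104 were picked out after their values were seen. Ear1, an eosinophil-associated ribonuclease that resident alveolar macrophages also express, was at 5.93, 16.8 and 53.7 CPM in PBS.CS and 27.1, 52.6 and 79.2 CPM in HDM.CS, while the air medians were 20.5 and 20.4 CPM (log2FC 1.58 under smoke and 0.12 in air, difference 1.45 ± 0.44, adjusted p = 0.0141). Ear1 belongs to a family of near-identical genes whose reads may be shared. Col6a5 had log2FC 1.68 under smoke and 0.25 in air (difference 1.43 ± 0.47, adjusted p = 0.0282), and Gm16104, a gene model of unknown role, 1.07 and -0.062 (difference 1.13 ± 0.41, adjusted p = 0.0447). When the 5 adipose-rich libraries were left out, Ear1 and Gm16104 did not pass under smoke (log2FC 0.89 and 0.88).

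With dexamethasone in week 11, 787 genes were called higher with HDM (4.37%) and 297 lower (1.65%) under smoke. Of the rises under smoke alone 509 were also called, which is 75.4% of them and 64.7% of the rises with dexamethasone, and of the falls the shares were 42.1% and 45.5%. The effects across genes had Pearson r = 0.875 and Spearman rho = 0.76. The test of the difference found 0 genes (0%) at adjusted p < 0.05 with limma-voom, 994 at an unadjusted p under 0.05, and 0 with edgeR and with DESeq2. Over all other settings tried the count was from 0 to 9. Muc5ac was at log2FC 0.29 ± 0.49, adjusted p = 0.703 with dexamethasone and Clca1 at 1.96 ± 1.79, adjusted p = 0.435, neither passing, but their differences from smoke alone did not pass either (1.75 ± 0.63, adjusted p = 0.891, and 2.20 ± 2.03, adjusted p = 0.926). Il17a still rose with dexamethasone, by 5.75 ± 0.77, adjusted p = 8.9e-09.

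The smallest p of that difference were those of Fut8, Edem1 and Rimklb on the side of the larger effect without dexamethasone, and Saa4, Ube2l6 and Ddc on the other. Fut8, the core fucosyltransferase of glycoproteins, had log2FC 0.44 without and 0.048 with dexamethasone (difference 0.40 ± 0.083, adjusted p = 0.145). Edem1, of endoplasmic reticulum quality control, had 1.2 and 0.71 (difference 0.49 ± 0.13, adjusted p = 0.767), and Rimklb 0.28 and -1.34. Saa4, a constitutive serum amyloid, had -0.032 and 2.11 (difference -2.14 ± 0.49, adjusted p = 0.332), Ube2l6, the enzyme that conjugates ISG15, -0.16 and 0.43, and Ddc, the aromatic amino acid decarboxylase, -0.27 and 0.61. None of the 6 passed. The cell cycle list had a median log2FC of 0.49 without and -4.9e-05 with dexamethasone. Immunoglobulin genes took 0.0155, 0.0768 and 0.209% of counts in PBS.CS.DEX and 0.587, 0.95 and 1.36% in HDM.CS.DEX.

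In the parenchyma of smoke-exposed mice 495 genes were called higher with HDM (2.71%) and 41 lower (0.225%). Of the airway rises under smoke 360 were also called in parenchyma, which is 53.3% of them and 72.7% of the parenchyma rises, and of the airway falls 19 (5.92% and 46.3%). Across 17999 genes the effects had Pearson r = 0.735 and Spearman rho = 0.485. The effect differed between the tissues in 0.975% of the genes, with the more positive log2FC in airway in 0.608% and with the more negative in 67 genes (0.367%). This share depended on single libraries, being 0.0823% without X153, 2.29% without X73 and 0 without the 5 adipose-rich PBS.CS libraries. The smallest p on the positive side were those of Slc16a6, a monocarboxylate transporter family member (log2FC 1.57 in airway and 0.68 in parenchyma, difference 0.89 ± 0.15, adjusted p = 0.000278), Slpi (3.85 and 2.09, difference 1.75 ± 0.31, adjusted p = 0.000892) and Ell2, an elongation factor that acts in immunoglobulin secretion (0.90 and 0.32, difference 0.58 ± 0.11, adjusted p = 0.00249). On the negative side were Acta2 (-0.70 and 1.00, difference -1.69 ± 0.31, adjusted p = 0.00133), Sema3d, a secreted semaphorin (-0.88 and 0.64, difference -1.52 ± 0.28, adjusted p = 0.00168), and Sprn (0.26 and 2.87, difference -2.61 ± 0.52, adjusted p = 0.0037). Il17a and Il17f rose in parenchyma as well, by log2FC 6.65 ± 0.67, adjusted p = 1.13e-14, and 6.66 ± 0.56, adjusted p = 5.86e-20, and Ighg1 by 6.46 ± 0.53, adjusted p = 1.02e-20.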

How the data were processed

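Bulk RNA-seq of airway and parenchyma was deposited by the authors as 1 table of estimated counts per gene, not normalised, in which 20.3% of values above 0 had a fraction. The submitters' processing notes name bcl2fastq 2.20.0.422, STAR 2.5.1b, RSEM 1.2.31, kallisto 0.44.0 and mm10 without roles, and strand handling was not given in the sources used here. Reads shared by near-identical genes are divided by estimation. Of 43346 identifiers 42462 matched GENCODE M21 without their version.

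Estimated counts were rounded and tested with limma-voom (limma 3.58.1, edgeR 4.0.16 for TMM, R 4.3.3), with 1 mean per group over the 80 airway libraries of 8 groups at 11 weeks, or over 160 libraries of 16 groups for the difference between tissues. A gene was tested if 9 or more libraries reached the CPM that 10 counts make in a library of median size. P-values were adjusted by Benjamini-Hochberg over all genes tested. Differences between effects were called at adjusted p < 0.05 with no limit on size. CPM used TMM library sizes.

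The gene lists and the comparison were chosen with earlier results of these data known. Genes named were, among called genes of at least 1 CPM in the higher group with separate groups, the 6 largest and 3 smallest p in each direction, then 3 or more per list, 3 in each direction of each difference, and 5 that the study's text names. Some genes under this rule are not reported here. No 2 libraries of a group agreed within sampling noise (chi-square per degree of freedom at least 30.4 over 90 pairs). The procedure was tested on simulated data. Alternatives were edgeR and DESeq2 1.42.0 tests, DESeq2 size factors, other filters, other sets of libraries, a covariate for blocks of 20 library codes, quality weights and leaving out each library. Chosen after the data were seen were fits without 5 adipose-rich libraries, without the PBS.AIR library X5 or with source markers as covariates.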

Additional observations from a re-analysis of the deposited data

Results flagged for a closer look

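Single libraries lay apart from the other 9 of their group, by Dixon's test on log2 values, in 5 of 90 groups of 10 values tested. Chance flags about 1 in 20 groups. In PBS.CS, X174 was highest for Igha at 821 CPM, against 160.1 to 327 CPM in the others, and for Ccl8 at 46.6 CPM, against 9.10 to 19.0 CPM. In HDM.CS, X57 was lowest for Il21 at 0.564 CPM, against 1.54 to 3.79 CPM, and for Ccl8 at 22.8 CPM, against 60.98 to 145.7 CPM. The lymph node stroma sum was highest in X157 at 671 CPM, against 92.5 to 216 CPM in the other HDM.CS libraries.

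The effect of HDM differed between smoke and air, by the test of the difference, in genes of several kinds. Larger rises in air gave negative differences in log2FC for Slpi (-2.97), Mmp12 (-3.25), Ighg1 (-4.00), Lcn2 (-2.94), Clmp (-1.77), Tnip1 (-0.83) and Hpgds (-1.51). Falls that were larger in air gave positive differences for Cyp2f2 (1.13), Upk1a (2.36), Palmd (0.93) and Gstk1 (0.81). Effects of opposite sign gave -2.85 for Il12b, -1.63 for Ccl17, -1.82 for Ccl2 and 1.00 for Col8a1. Larger effects under smoke gave 1.45 for Ear1, 1.43 for Col6a5 and 1.13 for Gm16104.

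Between airway and parenchyma the difference was positive for Slc16a6 (0.89), Slpi (1.75) and Ell2 (0.58), and negative for Acta2 (-1.69), Sema3d (-1.52) and Sprn (-2.61). None of these 6 differences passed without the 5 adipose-rich libraries.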

How the results depend on the processing

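In shares of the genes tested, genes called higher (3.75%) stayed within 1.5 times of the count of 675 in every setting except a minimum of 10 CPM, which tests fewer genes (314 genes, 2.63%), and were 3.40 to 3.94% when 1 library was left out. Genes called lower (1.78%) were less stable. Their share was 2.80% with DESeq2, 0.744% with a minimum of 10 CPM, 0.607% without the 5 adipose-rich libraries and 0.816% with source markers as covariates, and 1.26% (without X153) to 2.5% (without X73) when 1 library was left out. The difference with dexamethasone gave 1 gene with no filter (0.00344%), with only the groups compared (0.00572%) and with quality weights (0.00555%), 9 with source covariates (0.05%), and 0 to 0.00555% without 1 library. The difference between tissues (0.975%) was 1.53% with DESeq2, 0.374% with no filter, 2.26% with only the groups compared, 0.453% with more libraries, 2.06% with the library block, 1.75% with quality weights, 0 without the adipose-rich libraries and 0.0823 to 2.29% without 1 library. Smoke against air stayed between 8.85% (no filter) and 20.8%. With source covariates list medians became 1.45 for B cell (both lists), 2.11 for plasma cell, -0.40 and 0.042 for alveolar type I and II, -0.41 for endothelial cell, -0.095 for cardiac muscle, -0.15 for skeletal muscle, -0.054 for adipose and -0.080 for Schwann cell. Without the adipose-rich libraries they became -0.096 for smooth muscle, 0.068 for alveolar type II, 0.82 for cartilage and -0.26 for Schwann cell. Log2FC that changed sign were those of Acta2 (0.038) and Myh11 (0.0039) without the adipose-rich libraries, Cyp1a1 with source covariates (-0.20), and, over fits without 1 library, Cyp1a1 (-0.050 to 0.38) and Saa4 (-0.22 to 0.071). The causes were not tested. Of 5125 values of named genes, 4899 kept direction and side of the threshold. No paired analysis was possible because the labels give no replicate numbers. The library block is a covariate for runs of 20 consecutive codes, with which 3.81% of genes were called higher and 2.41% lower. Low genes such as Il13 and Ighe rest on a few counts.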

Other observations

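Of the arginine metabolism list 5 of 11 genes were called higher and 1 lower, with a median log2FC of 0.18. Beside Arg1 and Nos2, which compete for arginine, these were Ass1, which remakes arginine from citrulline, Slc7a2, an arginine importer, and Arg2. Ass1 was at 22.7, 26.7 and 32.7 CPM in PBS.CS and 40.2, 58.1 and 86.1 CPM in HDM.CS, without overlap (log2FC 1.08 ± 0.12, adjusted p = 7.35e-11). Slc7a2 rose by a log2FC of 1.35 ± 0.19, adjusted p = 2.01e-08, and Arg2 by 1.01 ± 0.18, adjusted p = 7.28e-06. The fall was that of the neuronal synthase Nos1 (log2FC -1.65 ± 0.53, adjusted p = 0.0146), which did not pass without the 5 adipose-rich libraries (-0.77), where 3 genes of the list were called higher and 0 lower.

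Complement genes had 2 of 16 called higher, 1 lower and a median log2FC of 0.40. C3ar1, the C3a receptor, rose without overlap by 1.26 ± 0.15, adjusted p = 1.39e-10, and Cfb, factor B, by 1.25 ± 0.23, adjusted p = 1.77e-05, with 9 of 10 HDM.CS libraries above the PBS.CS range. Cfd, factor D or adipsin, an adipocyte product, fell by 1.98 (± 0.52, adjusted p = 0.00254) and did not pass without the adipose-rich libraries (log2FC -1.23), where 1 gene of the list was called higher. Among 15 lymphoid tissue chemokine genes Cxcl13, which attracts B cells to follicles, rose (log2FC 1.19 ± 0.37, adjusted p = 0.0118), and Ccl21a, of lymphatic vessels and T cell zones, fell by 1.29 (± 0.43, adjusted p = 0.0174), the latter not passing without the adipose-rich libraries (-0.79).

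Of 17 genes of the type I interferon response 0 were called, 1 passed as higher and 3 as lower, with a median log2FC of -0.16. Oasl1 rose by 0.86 ± 0.19, adjusted p = 0.00038, but did not pass without the adipose-rich libraries (0.51), and Ifit1 fell by 0.57 (± 0.17, adjusted p = 0.00828). Of 12 basal and squamous epithelial genes 3 were called higher, all of the cornified envelope: Sprr2a3 (log2FC 2.97 ± 0.91, adjusted p = 0.00943), its near-identical copy Sprr2a2 (2.85 ± 0.95, adjusted p = 0.0173) and Ivl (1.45 ± 0.46, adjusted p = 0.0124). All 3 had medians under 1 CPM in both groups under smoke (at most 0.954 CPM), and none passed without the adipose-rich libraries, where Krt14 alone was called. Of 12 airway ion transport genes 0 were called and 2 passed as higher, Slc26a4, which encodes pendrin (log2FC 0.99 ± 0.29, adjusted p = 0.0075), and Slc26a9, a chloride channel (0.62 ± 0.21, adjusted p = 0.0192), neither of them without the adipose-rich libraries (0.31 and 0.23).

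The remaining function lists gave few calls. Of 23 genes of matrix, crosslinking and proteases 2 were called higher, Mmp12 and the gelatinase Mmp9 (log2FC 1.10 ± 0.23, adjusted p = 0.000115). Of 18 mediator genes Ptafr alone was called, of 16 clock genes Bhlhe41 alone (log2FC 1.18 ± 0.18, adjusted p = 3.85e-07), and of 13 glucocorticoid response genes Lcn2 was called higher and Pdk4 lower (log2FC -1.62 ± 0.53, adjusted p = 0.0162). Sgk1, a kinase of the glucocorticoid list, rose without overlap by 0.96 ± 0.14, adjusted p = 3.49e-08, just under the size limit. Without the adipose-rich libraries 3 matrix and 2 mediator genes were called, and 0 clock and 0 glucocorticoid response genes, Pdk4 not passing (-0.73).

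Among marker lists of cell types and neighbouring tissues, medians of log2FC were 0.73 for macrophage (4 of 12 called higher), 0.96 for neutrophil (4 of 10), 0.69 for eosinophil (3 of 8), 0.88 for B cell (2 of 6) and 0.47 for T cell (0 of 10). Lower medians were those of adipose (-1.82, 6 of 10 called lower), cardiac muscle (-1.13, 7 of 15), Schwann cell (-1.02, 3 of 8), club cell (-0.75, 2 of 6) and skeletal muscle (-0.71, 2 of 8 lower and 1 higher). Ciliated cell (-0.58), erythroid (-0.90), cartilage (-0.93) and mesothelial markers (-0.23) had 0 calls, as did alveolar type I (0.075), alveolar type II (0.50), endothelial cell (-0.078), dendritic cell (-0.19) and thymocyte markers (-0.043). Mast cell and basophil markers had 2 of 11 called higher and 3 lower, thyroid markers 1 of 5 higher, lymph node stroma 1 of 7 lower, and parathyroid markers were too low to be tested. Without the adipose-rich libraries the called genes were 1 macrophage, 2 neutrophil and 1 eosinophil markers as higher, and 0 adipose, 0 cardiac muscle and 0 club cell markers as lower. With all libraries all 12 macrophage markers passed as higher. Adgre1, Cd68 and Fcgr1 of these still passed without the adipose-rich libraries, under the size limit (log2FC 0.81, 0.88 and 0.82). The neutrophil markers Csf3r and Mmp8 and the eosinophil markers Ear1 and Ear2 did not pass in that fit.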
